A study of Mus musculus with 42 samples.

Results

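The genes described here are 43 genes of motile cilia, read from 56953 rows of a table of RNA-seq counts for the heart field of the mouse embryo. They form a list of names with no threshold on a value of these libraries, and each name matched 1 row through its Ensembl identifier. They encode 5 proteins of the 96-nm ruler and the nexin-dynein regulatory complex, 10 dynein heavy chains, 2 dynein intermediate chains, 4 proteins of outer arm docking, 7 factors of dynein arm assembly, 3 radial spoke proteins, 5 central pair and other axonemal proteins, 4 transcriptional regulators, and 3 proteins that sense flow at the node or antagonize Nodal. The study paired the left and the right side of the heart field of 21 embryos at stage E8.5i, so that 42 libraries were available. In 5 embryos the genotype was Ccdc40+/+ and the heart looped rightward (4 males and 1 female). The other 16 embryos were Ccdc40lnks/lnks, and the heart looped rightward in 11 of them (6 males and 5 females) and was inverted in 5 (3 males and 2 females). The lnks allele carries a nonsense point mutation that was induced chemically, and the embryos carried no other allele or treatment that the labels name. Head, back, heart tube and the trunk caudal to the second somite had been dissected off each embryo. By the paper, what remained was for the most part heart field of the dorsal pericardial wall, and it holds several cell types. The comparisons asked whether motile cilia genes differ in level between wild types and mutants, and whether their balance between right and left follows the direction of looping.

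Motile cilia beat by means of dynein arms that slide the microtubule doublets of the axoneme against each other. The arms are preassembled in the cytoplasm by dedicated factors, docked on the doublets, and spaced by a molecular ruler of CCDC39 and CCDC40, which also anchors the inner arms and the nexin-dynein regulatory complex. In the mouse embryo such cilia drive a leftward flow in the node, which precedes Nodal signalling in the left lateral plate, and their genes are targets of the transcription factors FOXJ1 and RFX.

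Libraries held between 36073684 and 62970327 counts, with a median of 43458644, so that the 3 counts that a value of 0 allows correspond to between 0.0476 and 0.0832 CPM, that is, counts scaled by library size. Such limits reflect counting error and no other source of spread. The label of the tissue was checked on its markers, and *Isl1*, *Tbx1*, *Gata4* and *Mef2c* of the heart field had at least 2270, 275, 114 and 3159 counts in every library. *Gata4* fell to 2.51 CPM in its lowest library, beside a median of 121 CPM. Genes of heart tube muscle were also present although the heart tube had been taken away, with a median of 719 CPM for *Myh6* and 284 CPM for *Tnnt2*. The lowest libraries had 7.07 CPM of *Myh6* and 32.9 CPM of *Tnnt2*. The summed level of the 7 muscle genes was lowest on the right of a rightward mutant, at 293 CPM. The median of that side and group was 3160 CPM. Of genes of the node pit and notochord, *T* ranged from 21 to 1560 counts, and *Noto* was at 0 in 17 of 42 libraries. *Shh* and *Foxa2*, which are also markers of the floor plate, had at least 70 and 271 counts in every library. Of the crown genes, *Wnt3* had 7 to 122 counts and *Nodal* at most 12, with 0 in 3 libraries. *Gdf1* of the crown was at 0 in all 42. Exon overlap was examined for the 43 members alone, so that this 0 is not read as absence of the RNA. Of the genes called between genotypes below, 10 besides *Ccdc40*, 8 of them pseudogenes, were higher in the wild types 7_1 and 8_1 than in every other library. Their summed level was at least 560 CPM in the 4 libraries of these embryos and at most 58.4 CPM in the other 38. The genes were taken from those calls, and no search over all genes was made for what sets the 2 embryos apart. The result on genotype is therefore also given without both embryos, an alternative chosen after seeing the data. In these bulk samples, fewer cells of a type and less RNA per cell cannot be told apart. The strand setting of the counting is not given in the sources used here, so that reads of a gene and of a partner that overlaps it cannot be separated. By the GENCODE annotation of GRCm39, exons of expressed partners cover 24.32% of the exon bases of *Ccdc39* (*Ttc14*), 25.8% of *Rsph9* (*Mrps18a*), 21.62% of *Dnaaf1* (*Taf1c*), 26.4% of *Dnaaf2* (*9330151L19Rik*), 17.58% of *Dnaaf3* (*Tnni3*), 13.15% of *Dand5* (*Gadd45gip1*), 11.06% of *Dnah3* (*Lyrm1*), 9.94% of *Cfap43* (*Sfr1*), 9.7% of *Rsph1* (*Slc37a1*), 9.26% of *Dnah1* (*Bap1*), 8.1% of *Dnaaf5* (*Prkar1b*) and 5.61% of *Ccdc103* (*Eftud2*), among others. The partners *Bap1*, *Sfr1* and *Eftud2* had medians of 9305.5, 12441.5 and 21290.5 counts per library. *Spag6* has a near-identical copy in the genome, and its reads may be split with it.

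The level of the motile cilia genes spanned a wide range. On the TPM scale, which divides counts by exon length before scaling to a common total, their median was 0.673 TPM over 21 embryos. The mean was at least 1 TPM for 17 of 43 genes, between 0.1 and 1 TPM for 20, and below 0.1 TPM for 6. The 89 other motile cilia genes listed for comparison had a median of 0.736 TPM, and 34 of them reached 1 TPM. In contrast, the 42 genes of intraflagellar transport and of primary cilia had a median of 17.5 TPM, and 41 of them reached 1 TPM. Since all libraries share 1 tissue, these shares describe the heart field as dissected.

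**Figure D1:**
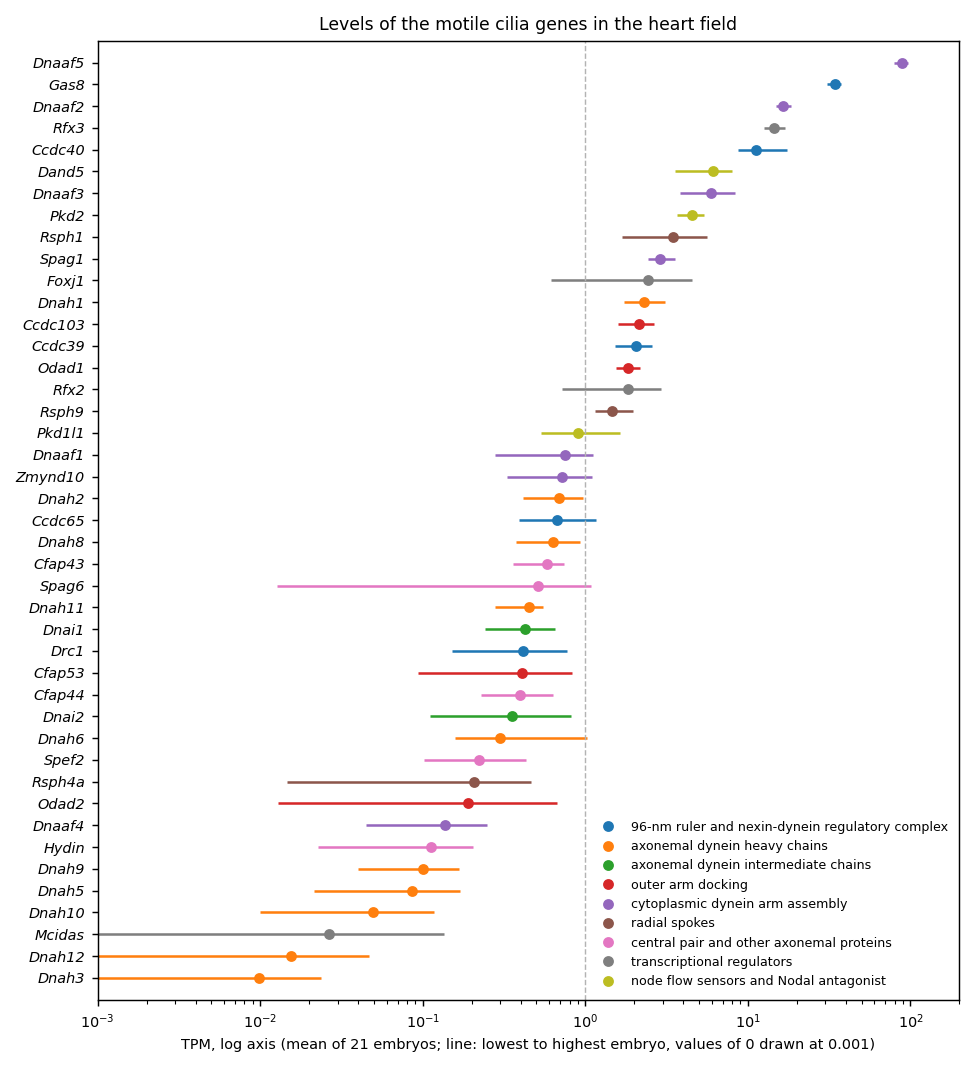
Level of each of the 43 motile cilia genes, in TPM on a log axis, ordered by the mean. Points show the mean of 21 embryos, lines run from the lowest to the highest embryo, colours mark the role, and values of 0 are drawn at the left edge. *Dnaaf5* lies highest at 88.2 TPM, 17 genes lie above the dashed line at 1 TPM, and *Dnah3* lies lowest at 0.00985 TPM.

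The 5 highest genes belonged to assembly, regulation and the ruler. *Dnaaf5*, a scaffold for the assembly of dynein arms in the cytoplasm, had the highest level at 88.2 ± 5.21 TPM (SD, n = 21). *Gas8*, a subunit of the nexin-dynein regulatory complex that is also named *Drc4*, followed at 34.3 ± 1.83 TPM, and both held their place in all 21 embryos. *Dnaaf2*, which acts with heat shock proteins in dynein folding, was at 16.4 ± 0.985 TPM. *Rfx3*, a transcription factor of ciliary genes in many cell types, was at 14.4 ± 1.27 TPM, and the ranges of *Dnaaf2* and *Rfx3* overlapped. *Ccdc40* followed at 11.2 ± 2.95 TPM, with a range from 8.64 to 17.5 TPM that overlapped that of *Rfx3* and lay above that of *Dand5*. This mean pools genotypes that differ, and *Ccdc40* was at 16.2 ± 0.811 TPM in the 5 wild types, where *Dnaaf2* was at 17.3 ± 0.498 TPM and *Rfx3* at 14.6 ± 1.55 TPM, and at 9.68 ± 0.758 TPM in the 16 mutants.

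The lowest genes were mostly heavy chains. *Dnah5*, the heavy chain of the outer arm most often mutated in primary ciliary dyskinesia, had 0.0855 ± 0.0382 TPM, and *Dnah10* of an inner arm had 0.0497 ± 0.033 TPM. *Mcidas*, a master regulator of multiciliated cells, had a count of 0 in 34 of 42 libraries and at most 6 counts. *Dnah12* and *Dnah3* were at or below 3 counts in 35 and 37 libraries, so that their levels of 0.0155 and 0.00985 TPM are near the limit of detection and their order is not resolved. Of the 10 heavy chains, only *Dnah1*, at 2.31 ± 0.402 TPM, reached 1 TPM, and its exons overlap those of *Bap1* as given above. *Dnah11*, the heavy chain that gives the *iv* mouse its random situs, had 0.451 ± 0.0653 TPM and between 20 and 117 counts in each library.

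Genes also differed in how much they varied between embryos. The coefficient of variation of the CPM was 5.93% for *Dnaaf5*, 5.26% for *Gas8* and 7.63% for *Rfx3*. It was 47.3% for *Foxj1*, the forkhead factor that switches on the programme of motile cilia, and 63.3% for *Spag6*, a protein of the central pair. *Spag6* ranged from 0 to 72 counts among libraries, and both sides of an embryo could differ, as with 0 counts on the left and 42 on the right of the wild type 8_1. For *Odad2*, which encodes a docking factor of the outer arm, the variation was 91.7%, at no more than 39 counts in any library. Over the 406 pairs of the 29 members with at least 20 counts on average, Spearman's rho across the 21 embryos had a median of 0.05 and ranged from -0.54 to 0.66, as a description of samples that share their library totals. *Rfx2* was the member most like *Foxj1*, with a rho of 0.64.

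The sequence before the start site was examined for the letters that RFX and forkhead factors are known to prefer, because these are the regulators of the programme among the members. Windows of 250 bases before the canonical start were read from GRCm39 for all 43 members and for 21664 protein-coding genes. The motif GTTGCC, which is one arm of an RFX site and was searched on both strands (as GTTGCC or GGCAAC), was found in 10 of 43 members (23.3%), against 9.44% of all windows, 29.2% of those of the other motile cilia genes and 19% of those of the intraflagellar transport and primary cilia genes. A site with both arms, GTNNCC and GGNAAC with 0 to 3 bases between them, was found in 1 member (2.33%, *Spag1*) against 1.74% of all windows, 6.74% of the other motile cilia genes and 4.76% of the intraflagellar transport and primary cilia genes, and may overlap the former motif. The forkhead motif GTAAACA was found in 2 members (4.65%) against 2.71% of all windows and 3.37% and 0% of those lists. These matches describe letters in a window, and no binding was measured. The windows shown, with matches in capitals, are those of *Ccdc40*, the member called between genotypes, of *Foxj1*, and of *Gas8*, the highest member with a match. The window of *Ccdc40* (chr11:119119114-119119363, plus strand) holds no match, that of *Foxj1* (chr11:116226226-116226475, minus strand) holds 1 GTTGCC from 113 to 108 bases before the start, and that of *Gas8* (chr8:124245323-124245572, plus strand) holds 1 GGCAAC from 97 to 92 bases and 1 GTTGCC from 53 to 48 bases before the start.
Ccdc40: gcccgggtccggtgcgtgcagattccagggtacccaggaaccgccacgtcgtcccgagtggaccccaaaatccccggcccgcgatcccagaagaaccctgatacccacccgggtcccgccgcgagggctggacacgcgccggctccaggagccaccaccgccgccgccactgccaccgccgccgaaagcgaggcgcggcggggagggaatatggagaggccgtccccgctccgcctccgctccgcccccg
Foxj1: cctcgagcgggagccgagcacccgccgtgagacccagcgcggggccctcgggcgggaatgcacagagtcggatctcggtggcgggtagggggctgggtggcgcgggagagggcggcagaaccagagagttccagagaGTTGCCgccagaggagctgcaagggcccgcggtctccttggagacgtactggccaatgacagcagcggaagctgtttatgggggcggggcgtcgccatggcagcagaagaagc
Gas8: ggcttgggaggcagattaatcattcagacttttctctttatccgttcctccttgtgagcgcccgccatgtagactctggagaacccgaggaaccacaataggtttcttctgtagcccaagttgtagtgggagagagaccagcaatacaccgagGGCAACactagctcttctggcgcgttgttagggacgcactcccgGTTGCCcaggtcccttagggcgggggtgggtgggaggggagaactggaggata

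*Ccdc40* was the only one of the 41 members tested that edgeR called between genotypes, and it was lower in mutants. Counts of both sides were summed per embryo, and in the wild types its level was 19.5, 19.8, 20, 21 and 22.5 CPM. It ranged from 10.9 to 13.4 CPM around a median of 12.3 CPM in the 11 mutants with rightward looping, and was 11.2, 11.5, 12.3, 12.5 and 13.7 CPM in the 5 inverted mutants. Every mutant lay below every wild type, also when the 42 libraries were taken singly, with at least 15.2 CPM in wild-type libraries and at most 14.8 CPM in mutant ones. No other gene separated the genotypes in this way, since the ranges did not overlap for 1 of 17975 genes with at least 20 counts on average (0.00556%).

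The log2 difference of *Ccdc40* was -0.74 (SE 0.058) by edgeR's quasi-likelihood test with sex as a covariate (adjusted p = 2.87e-07). The log2 means differed by -0.75, which leaves mutants 59.4% of the wild-type level, and in the exact permutation test, two-sided, the p-value was 9.83e-05, the smallest that 5 against 16 embryos can give. Between the 5 wild types and the 11 mutants with the same rightward looping, the difference was -0.74 (SE 0.063, adjusted p = 4.48e-05 by edgeR). Without the wild types 7_1 and 8_1 it was -0.70 over all mutants (adjusted p = 0.000304) and -0.70 within rightward looping (adjusted p = 0.0171). Inverted and rightward mutants differed by 0.01 (adjusted p = 1 by edgeR, exact permutation p = 0.891), within their spread. The right side alone had a log2 difference of -0.82 and the left side alone of -0.67, both with an exact permutation p of 9.83e-05. In edgeR's test of the right side of rightward embryos alone the call was lost (-0.80, adjusted p = 0.149).

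**Figure D2:**
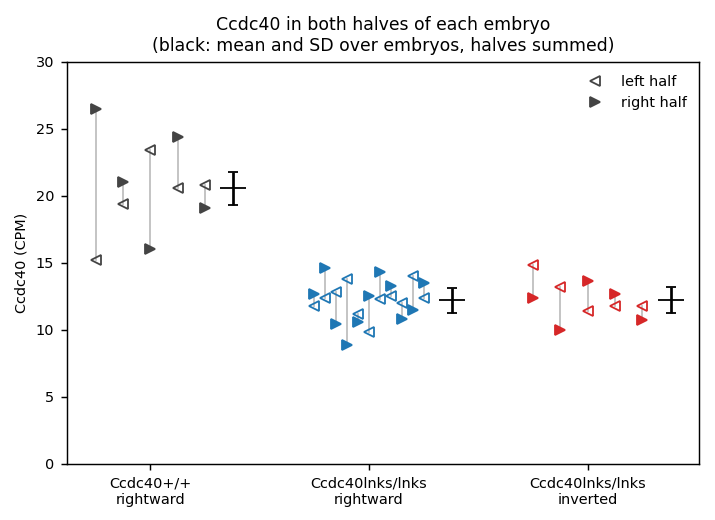
Level of *Ccdc40* in CPM on the left (open triangles) and on the right (filled triangles) of each embryo, joined by a grey line, in the 3 groups. Black bars give the mean and SD over embryos with both sides summed, which are 20.6 ± 1.22 CPM in 5 wild types, 12.2 ± 0.904 CPM in 11 rightward mutants and 12.3 ± 0.962 CPM in 5 inverted mutants.

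In the whole table, edgeR called 11 of 27606 genes tested between genotypes (0.0398%), all of them lower in mutants. The 10 besides *Ccdc40* are those described above as high in 7_1 and 8_1, which were taken from these calls. Without both embryos *Ccdc40* was the only gene called. Within rightward looping, it was the only one called among 27037 genes (0.0037%) with all embryos as well.

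No other member was called between genotypes. Of the 40 tested besides *Ccdc40*, 17 had a positive and 23 a negative log2 difference, with a median of -0.015 beside 0.01 over all genes tested, and none had an unadjusted p below 0.05 by edgeR, against 4.53% of all genes. By the exact permutation test, unadjusted and run on each of the 43 members, *Dnaaf2* was also below 0.05 (-0.11, p = 0.00776, and -0.10, p = 0.022 within rightward looping). It had 15.6 ± 0.565 CPM in wild types, 14.5 ± 0.803 CPM in rightward mutants and 14.3 ± 0.694 CPM in inverted mutants, with overlapping ranges, and edgeR gave -0.09 (SE 0.047, unadjusted p = 0.0581, adjusted p = 0.997). *Ccdc39*, the partner of *Ccdc40* in the ruler, had 4.84 ± 0.732 CPM in wild types, 5 ± 0.457 CPM in rightward mutants and 5.05 ± 0.655 CPM in inverted mutants. The ranges overlapped, and its log2 difference between genotypes was 0.06 (SE 0.093, adjusted p = 0.997 by edgeR). *Gas8* of the regulatory complex had 42.3 ± 2.86, 41.1 ± 1.77 and 42 ± 2.53 CPM in the same groups, with a log2 difference of -0.04 (SE 0.042).

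By role, no member of the dynein arms passed the test. The 9 heavy chains tested ranged from -0.46 to 0.49 in log2 difference, and the largest positive value, that of *Dnah6*, had an SE of 0.303 (adjusted p = 0.997 by edgeR). *Dnah6* was at 3.44 CPM in 1 rightward mutant, 113 counts on the left and 179 on the right, beside at most 1.23 CPM in the other mutants and 1.01 CPM in wild types. The 2 intermediate chains, *Dnai1* and *Dnai2*, had 0.27 and -0.05, the 4 docking factors ranged from -0.55 to 0.38, and the 7 assembly factors from -0.22 to 0.25. The 3 radial spoke genes had 0.18 to 0.33 and the 5 central pair and other axonemal genes -0.28 to 0.30. The 3 regulators tested had -0.28 for *Foxj1*, -0.10 for *Rfx2* and -0.02 for *Rfx3*. *Mcidas* and *Dnah3* did not pass the filter on low counts. The 80 other motile cilia genes tested and the 42 genes of intraflagellar transport and primary cilia held no call either, with medians of 0.02 and -0.02. At an unadjusted p below 0.05 they held 3 and 0 genes, beside 4.53% of all genes. DESeq2 called *Ccdc40* alone among the members, and 11 of 27606 genes in the whole table, 3 of them higher in mutants.

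**Figure D3:**
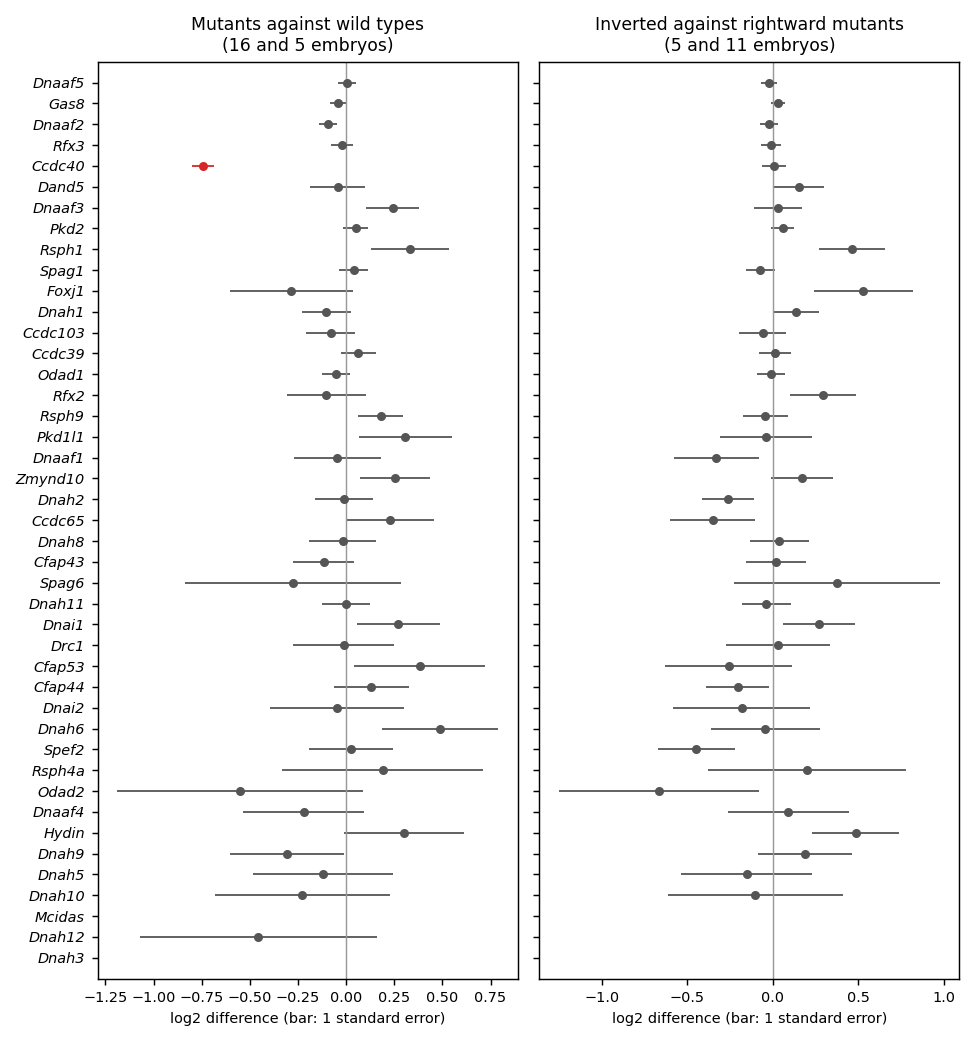
Log2 difference of each motile cilia gene between mutants and wild types (left) and between inverted and rightward mutants (right), with 1 standard error as the bar and no point for a gene that did not pass the filter on low counts. Genes are ordered by TPM, and *Ccdc40*, in red, is the only one past an adjusted p of 0.05, at -0.74 between genotypes and 0.01 between directions of looping.

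Among mutants, the levels were compared between 5 embryos with inverted and 11 with rightward looping. No member was called by edgeR, nor any of the 26985 genes tested (0%), and DESeq2 called none. An unadjusted p below 0.05 was held by 1 of 40 members, no larger a share than the 821 of all genes (3.04%). This was *Rsph1*, a protein of the radial spoke head whose exons overlap those of *Slc37a1*, with 1.16, 1.31, 1.33, 1.55 and 1.75 CPM in the inverted mutants and 0.54 to 1.48 CPM around a median of 1.12 CPM in the rightward ones. The ranges overlapped, and the log2 difference was 0.46 (SE 0.194, unadjusted p = 0.0284, adjusted p = 1 by edgeR, exact permutation p = 0.011). *Foxj1* had the largest positive difference among members with at least 20 counts, 0.53 (SE 0.289), with 0.869 to 2.54 CPM in inverted and 0.395 to 1.91 CPM in rightward mutants. *Spef2* of the central pair had the largest negative one of these, -0.45 (SE 0.223).

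Next, right was compared with left within embryos. In the wild types, no member and none of 23182 genes was called by edgeR (0%), DESeq2 called 20 genes and no member, and no member had an unadjusted p below 0.05, beside 2.76% of all genes. Among members with at least 20 counts, *Spag6* had the largest ratio there, 1.10 (SE 0.887), and *Pkd1l1* the lowest, -0.37 (SE 0.347). The study divides its mutants with rightward looping into situs solitus and heterotaxy, which the labels do not give for each sample, so that the values of this group are averages over both classes. In these 11 mutants, edgeR called 6 of 22795 genes (0.0263%), none of them a member. DESeq2 called 32 of 22795 genes, 6 of them higher on the right, and no member. By edgeR, 1 of the 39 members tested had an unadjusted p below 0.05, beside 3.59% of all genes. It was *Cfap53*, a gene of outer arm docking that is needed for normal situs, which was higher on the right in 8 of 11 embryos (log2 0.63, SE 0.289, unadjusted p = 0.0462, adjusted p = 1 by edgeR). It had a median of 10 counts per library in this group. Among members with at least 20 counts, *Drc1* of the nexin-dynein regulatory complex had 0.30 (SE 0.309) and *Cfap44* -0.28 (SE 0.215). In the 5 inverted mutants edgeR called 468 of 22960 genes (2.04%) and again no member. At an unadjusted p below 0.05 this group held 1 of 37 members, beside 15.1% of all genes.

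*Dnah8*, a heavy chain of the outer arm, came nearest to a call in the inverted mutants. In CPM it was 1.93 on the left and 2.99 on the right in the embryo 10_3, 3.36 and 6.04 in 18_2, 2.83 and 4.54 in 2_7, 1.70 and 5.90 in 32_2, and 2.63 and 3.71 in 4_6. It was thus higher on the right in 5 of 5 inverted mutants, against 2 of 5 wild types and 8 of 11 rightward mutants. The log2 ratio of right over left was 0.89 (SE 0.202) with an unadjusted p of 0.0021 and an adjusted p of 0.0721 by edgeR, and the exact sign-flip permutation test gave 0.0625, the smallest p that 5 embryos allow. DESeq2 called it (log2 0.89, adjusted p = 0.000598), as did edgeR without a filter on low counts (adjusted p = 0.0185) and with all 42 libraries in 1 fit (adjusted p = 0.0387). The same fits called 1755, 942 and 141 genes of the whole table, and *Dnah8* was the only member among them. The embryo 32_2 had the largest ratio, 1.77 beside 0.49 to 0.84 in the others, and the log2 ratio was 0.67 without it (adjusted p = 0.148 by edgeR). The ratio of *Dnah8* was -0.15 (SE 0.216) in wild types and 0.11 (SE 0.106) in rightward mutants.

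In the inverted mutants markers of several tissues also differed between the sides. The summed level of 7 genes of heart tube muscle ranged from 1220 to 2360 CPM on the left and from 2310 to 4930 CPM on the right, with 6 of 7 genes called higher on the right. That of 12 heart field genes was 575 to 873 CPM on the left and 888 to 1160 CPM on the right, with 5 called higher. For 9 genes of foregut endoderm it was 896 to 1660 CPM and 1400 to 2030 CPM, with 1 called higher, *Hhex*. The 6 neural tube genes were at 68 to 110 CPM on the left and 43.1 to 83.2 CPM on the right, with 2 called lower on the right, *Pax6* and *Pou3f1*. The 6 floor plate and ventral neural tube genes were at 30.6 to 93.2 CPM on the left and 23.8 to 42.6 CPM on the right, with 2 called lower on the right, *Nkx6-1* and *Olig2*. The 5 genes of paraxial mesoderm were at 138 to 206 CPM and 74.6 to 137 CPM, with none called by edgeR and 4 lower on the right at an unadjusted p below 0.05. The 5 endothelial genes were at 302 to 356 CPM and 352 to 409 CPM, with none called by edgeR and 3 higher on the right at an unadjusted p below 0.05. No gene of these lists was at 0 in that group, and their part in the ratio of *Dnah8* was not tested.

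Other members kept 1 side throughout a group. *Rfx3* was higher on the right in 5 of 5 wild types, with log2 ratios from 0.03 to 0.27, and *Dnah2*, a heavy chain of an inner arm, was lower on the right in all of them, from -0.94 to -0.02. These were 2 of 29 members with at least 20 counts on average, beside 4.94% of all such genes. No member did so in the 11 rightward mutants, beside 0.106% of genes. In the inverted mutants 4 of 29 members kept 1 side, beside 17.2% of genes. They were *Dnah8* on the right, and *Gas8* (-0.18 to -0.02), *Dnaaf2* (-0.27 to -0.11) and *Dnah2* (-1.03 to -0.03) on the left. The 37 members tested there had a median log2 ratio of -0.08, beside -0.005 over all genes, and 12 of them were positive. The largest negative ratio there, that of *Pkd1l1*, was -0.48 (SE 0.301, adjusted p = 0.522 by edgeR).

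**Figure D4:**
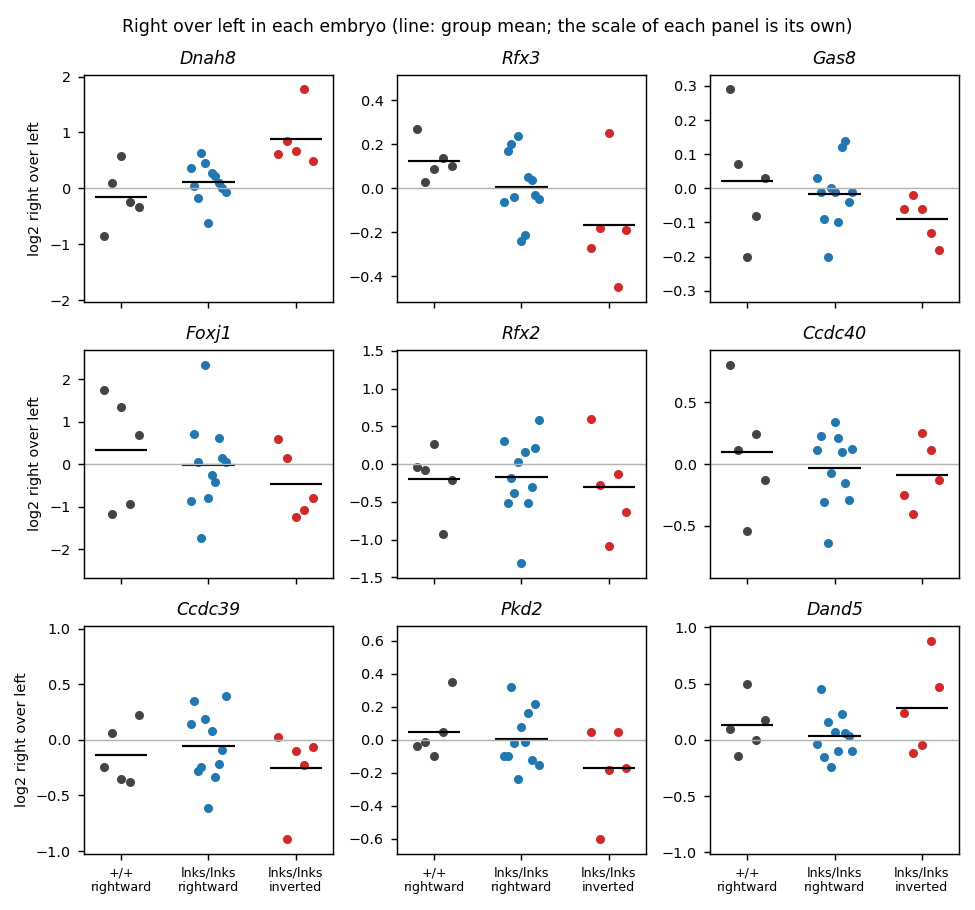
Log2 ratio of right over left for 9 motile cilia genes in each embryo of the 3 groups, with the group mean as a line and a scale of its own in each panel. All 5 inverted mutants lie above 0 for *Dnah8* (0.49 to 1.77) and below 0 for *Gas8* (-0.18 to -0.02), whereas *Foxj1* spans -1.74 to 2.33 over all embryos and *Ccdc40* lies on both sides of 0 in each group.

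The difference of asymmetry between groups was tested as an interaction of side and group in all 42 libraries. No member was called by edgeR between inverted and rightward mutants, where 82 of 26335 genes were called (0.311%), between inverted mutants and wild types, where 135 were called (0.513%), or between rightward mutants and wild types, where none was (0%). The first 2 of these comparisons share the inverted mutants and the last 2 share the wild types. Among members with at least 20 counts, *Dnah8* had the largest positive difference in both that include the inverted mutants, 0.77 against rightward mutants (SE 0.229, unadjusted p = 0.00274, adjusted p = 0.171 by edgeR) and 1.02 against wild types (SE 0.268, unadjusted p = 0.000932, adjusted p = 0.084). Exact permutation tests of the ratios gave 0.00137 and 0.0159, and the ranges of the groups overlapped in both. DESeq2 called *Dnah8* in both (adjusted p = 0.039 and 0.00892), among 456 and 911 genes of the whole table and as the only member. Without the embryo 32_2 the differences were 0.55 (adjusted p = 0.512 by edgeR) and 0.82 (adjusted p = 0.216), and without the wild type 22_4 the latter was 1.21 and was called (adjusted p = 0.0197). The lowest values of such members were those of *Foxj1* against rightward mutants (-0.46, SE 0.549) and of *Spag6* against wild types (-1.24, SE 1.221). Between rightward mutants and wild types they were 0.59 (SE 0.636) for *Drc1* and -0.92 (SE 1.038) for *Spag6*. *Rfx3* differed by -0.29 between inverted mutants and wild types (SE 0.109, unadjusted p = 0.0141, adjusted p = 0.232 by edgeR). *Cfap53* differed by 1.64 between rightward mutants and wild types (SE 0.702, unadjusted p = 0.0289, adjusted p = 1 by edgeR, with no member called by DESeq2), at counts from 1 to 33. By edgeR at an unadjusted p below 0.05 the 3 comparisons held 1, 2 and 1 of 41 members, beside 10.5%, 13.6% and 3.04% of all genes. Unadjusted exact permutation tests were also below 0.05 for *Dnaaf2* between inverted and rightward mutants (-0.16, p = 0.0421), for *Rfx3* (p = 0.0397) and *Dnah12* (-1.22, p = 0.0476, near the limit of detection) between inverted mutants and wild types, and for *Cfap53* between rightward mutants and wild types (p = 0.0133).

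The sensors of flow and the Nodal antagonist were detected in every library. *Pkd2*, the cation channel of primary cilia, had 15.4 ± 1.52 CPM in wild types, 15.5 ± 1.18 CPM in rightward mutants and 16.2 ± 1.35 CPM in inverted mutants. *Pkd1l1*, its partner in the crown cells of the node, had 1.38 ± 0.292, 1.68 ± 0.578 and 1.6 ± 0.723 CPM. *Dand5*, the Nodal antagonist that flow lowers on the left of the node, had 2.32 ± 0.442, 2.21 ± 0.428 and 2.44 ± 0.258 CPM. The groups overlapped for each of the 3 genes. Per exon length, *Dand5* was at 6.07 ± 1.02 TPM, *Pkd2* at 4.53 ± 0.411 TPM and *Pkd1l1* at 0.905 ± 0.322 TPM over 21 embryos. The exons of *Dand5* overlap those of *Gadd45gip1* as given above, and this partner had a median of 2019 counts per library. The log2 ratio of right over left of *Dand5* was 0.12 (SE 0.162) in wild types, 0.03 (SE 0.083) in rightward mutants and 0.29 (SE 0.183) in inverted mutants, none of which was called. The 4 genes of node crown cells listed as markers had a summed level between 0.3 and 2.85 CPM in all libraries, with *Gdf1*, whose exon overlap was not examined, at 0.

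*Foxj1* and *Dnah8* were set beside the marker lists over all 21 embryos, with 44 relations computed in all and p-values from 100000 permutations. Right over left of *Foxj1* followed that of 6 floor plate and ventral neural tube genes, with Pearson's r of 0.85 and Spearman's rho of 0.85 (p = 1e-05 for each, the smallest that the permutations can give, adjusted p = 0.00022). It was 0.79 without the 2 embryos farthest from the median and 0.89 within the 11 rightward mutants. The level of *Foxj1* also followed that of the same genes (r = 0.75, rho = 0.76, permutation p = 0.00011 and 0.00016, adjusted p = 0.000968 and 0.00141), at 0.73 without 2 embryos and 0.57 within rightward mutants. For the node pit and notochord list, which shares *Foxa2* and *Shh* with the floor plate list, the r of the ratios was 0.65 (rho = 0.66, permutation p = 0.00148 and 0.00154, adjusted p = 0.00543 and 0.00616), at 0.62 without 2 embryos and 0.73 within rightward mutants. The r of the levels with that list was 0.50 (rho = 0.47, permutation p = 0.0204 and 0.0354, adjusted p = 0.0409 and 0.0708), at 0.50 and 0.48. With the 4 node crown genes the r was -0.13 for the ratios and 0.08 for the levels (permutation p = 0.568 and 0.729, adjusted p = 0.761 and 0.835). Other lists were related to *Foxj1* as well. With the 6 neural tube genes the r of the ratios was 0.78 (rho = 0.69, permutation p = 4e-05 and 0.00091, adjusted p = 0.000587 and 0.00445), at 0.58 without 2 embryos and 0.89 within rightward mutants. With the 12 heart field genes it was negative, -0.62 (rho = -0.64, permutation p = 0.00253 and 0.0023, adjusted p = 0.00795 and 0.00843), at -0.52 without 2 embryos and -0.71 within rightward mutants. For paraxial mesoderm it was 0.55 (rho = 0.64, permutation p = 0.00955 and 0.00263, adjusted p = 0.0221 and 0.0089), at 0.60 and 0.54. For primitive blood it was 0.57 (rho = 0.53, permutation p = 0.00707 and 0.0137, adjusted p = 0.0183 and 0.0355), at 0.55 and 0.34, and for heart tube muscle -0.49 (rho = -0.53, permutation p = 0.0252 and 0.0158, adjusted p = 0.0482 and 0.0376), at -0.35 and -0.46. The level of *Foxj1* had an r of 0.73 with the neural tube genes (rho = 0.70, permutation p = 0.00021 and 0.00048, adjusted p = 0.00132 and 0.00352), at 0.66 and 0.67, and of 0.71 with paraxial mesoderm (rho = 0.52, permutation p = 0.0003 and 0.0162, adjusted p = 0.00156 and 0.0376), at 0.58 and 0.71. With the heart field genes the r of the levels was -0.61 (rho = -0.62, permutation p = 0.00316 and 0.00347, adjusted p = 0.00869 and 0.0109), at -0.60 and -0.73. *Foxj1* itself was 0.607 CPM on the left and 0.996 on the right of the wild type 8_1, and 3.77 and 1.93 CPM in 7_1.

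The level of *Dnah8* followed the 9 genes of foregut endoderm, with an r of 0.84 and a rho of 0.82 (permutation p = 1e-05 for each, adjusted p = 0.00022). The r was 0.75 without the 2 embryos farthest from the median and 0.84 within rightward mutants. The level of *Dnah8* had an r of 0.72 with heart tube muscle (rho = 0.58, permutation p = 0.00011 and 0.00742, adjusted p = 0.000968 and 0.0204), at 0.67 without 2 embryos and 0.79 within rightward mutants. With the heart field genes it was 0.61 (rho = 0.39, permutation p = 0.00315 and 0.077, adjusted p = 0.00869 and 0.136), at 0.60 and 0.64. It was -0.55 with the neural tube (rho = -0.46, permutation p = 0.00918 and 0.038, adjusted p = 0.0221 and 0.0726), at -0.44 and -0.36, and -0.54 with paraxial mesoderm (rho = -0.45, permutation p = 0.0114 and 0.0442, adjusted p = 0.025 and 0.081), at -0.28 and -0.65. With endothelium it was 0.45 (rho = 0.51, permutation p = 0.0376 and 0.0206, adjusted p = 0.069 and 0.0453), at 0.44 and 0.43. The ratio of right over left of *Dnah8* and those of several lists were both shifted in the inverted mutants, so that a value over all embryos would restate that shift and is not given. Within the 11 rightward mutants, as a description, the r of the ratios was 0.34 with foregut endoderm, 0.32 with heart tube muscle, 0.12 with endothelium, 0.05 with the heart field, 0.02 with the neural tube and -0.38 with paraxial mesoderm. Both measures of a relation come from the same libraries and share their totals, and the 5 wild types and 5 inverted mutants are too few for a value of their own.

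**Figure D5:**
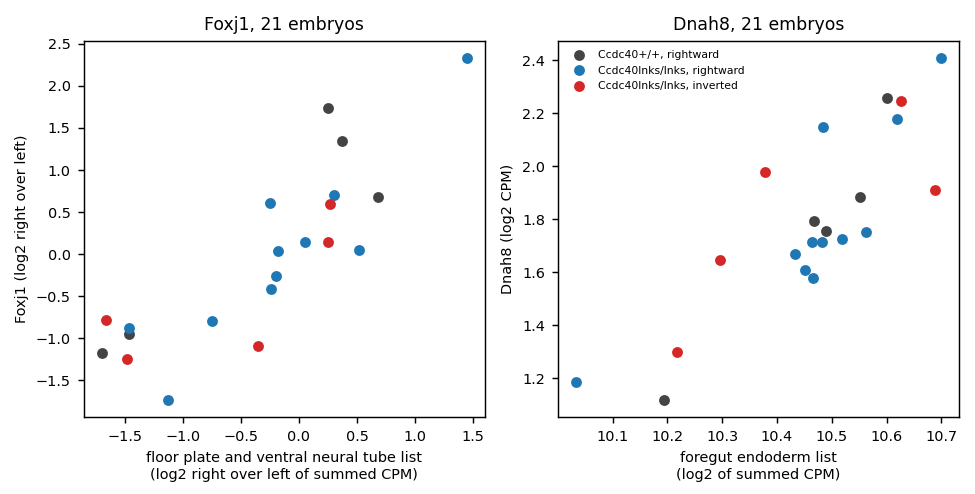
Right over left of *Foxj1* against that of 6 floor plate and ventral neural tube genes (left, both in log2), and level of *Dnah8* in log2 CPM against the summed level of 9 foregut endoderm genes (right), in 21 embryos coloured by group. Pearson's r is 0.85 in the left panel and 0.84 in the right panel.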

How the data were processed

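RNA was measured by poly-A sequencing in 42 libraries, the left and the right side of 21 embryos. The authors aligned the reads to GRCm39 with STAR, removed duplicates and counted the rest per Ensembl gene with featureCounts of Subread 2.0.6, and the deposited values are raw counts, with no scaling or filter. The members and lists were chosen with earlier results of these data known. Groups came from the labels.

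Counts were tested with edgeR 4.0.16 (quasi-likelihood test, TMM, Benjamini-Hochberg over all genes that passed filterByExpr at a total of 10, a count of 5, a large group size of 50 and a proportion of 0.2, threshold 0.05) in R 4.3.3. For levels, both sides were summed per embryo and sex was a covariate. Right over left carried the embryo as a block, since both sides come from 1 embryo by the labels. After group means were removed, both sides correlated with a median of 0.41 over 2000 variable genes, and over 0.1 in 19 of 21 embryos. No library was a copy of another (lowest chi-square per gene 8.15 over 861 pairs). CPM used effective library sizes, and log2 values a prior count of 2. TPM used the exon length of GENCODE M39, which named 56310 identifiers.

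Genes were named by a rule. It took members called in any comparison, the ruler genes, the regulators, the flow sensors and the Nodal antagonist, the 5 highest and 5 lowest in TPM, and in each comparison the largest difference either way at 20 counts or more. Members with an unadjusted p below 0.05, and those that kept 1 side or varied most, were named after their values were seen. Alternatives used DESeq2 1.42.0, limma 3.58.1, other filters and samples. The tests were checked on simulated data. With no statement of separate litters, p-values measure the spread between these embryos.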

Additional observations from a re-analysis of the deposited data

Results flagged for a closer look

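In groups of 5 embryos, a value was marked where its gap to the next exceeded 0.71 of the range of the group. Of 72 groups of values examined, 5 had such an embryo, and chance marks about 1 in 20. The log2 ratio of right over left of *Dnah8* was 1.77 in the inverted mutant 32_2, beside 0.49 to 0.84 in the others. That of *Ccdc39* was -0.89 in the inverted mutant 18_2, beside -0.23 to 0.03. That of *Spag6* was 3.21 in the inverted mutant 4_6, with 1 count on the left and 21 on the right, beside -0.95 to -0.47. That of *Drc1*, a subunit of the nexin-dynein regulatory complex, was -4.07 in the wild type 10_1, with 45 counts on the left and 1 on the right, beside -0.01 to 0.75. The level of *Cfap44* was 0.417 CPM in the inverted mutant 4_6, beside 0.642 to 0.728 CPM in the others.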

How the results depend on the processing

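Of 199 counts of members called under alternatives, 192 equalled the reported count. The count for genotype within rightward looping was 0 on the right side alone. For right over left in inverted mutants it was 1 with DESeq2, with no filter and with all 42 libraries in 1 fit, for the asymmetry of inverted against rightward mutants 1 with DESeq2, and for inverted mutants against wild types 1 with DESeq2, each time by *Dnah8*. With 1 embryo left out, that last count ranged from 0 to 1, that for genotype stayed at 1, and those for the other comparisons equalled the reported count. With both sides as libraries and the embryo as a replicate block in limma, 1 member was called between genotypes, as reported, and 0 between directions of looping. Without the block, 0 members were called right over left in any group, and no count of members changed. Counts over the whole table moved more. Right over left in inverted mutants, 468 genes were 1755 with DESeq2, 942 with no filter, 141 with all 42 libraries, 305 without the block and 138 to 446 with 1 embryo left out (lowest without 32_2). The 82 genes of inverted against rightward mutants were 456 with DESeq2, 131 with no filter, 17 without the block and 18 to 192 with 1 embryo left out. The 135 of inverted mutants against wild types were 911 with DESeq2, 207 with no filter, 7 without the block, and 17 (without 32_2) to 641 (without 22_4). The 6 of rightward mutants were 32 with DESeq2, 1 without the block and 2 to 8 with 1 embryo left out. The 11 of genotype were 1 in males alone and without 7_1 or 8_1, and up to 18 without 17_7, and the 1 within rightward looping was 10 with DESeq2 and up to 6 with 1 embryo left out. The exact test of *Ccdc40* gave -0.77 to -0.72 with 1 embryo left out, and kept its direction and its side of the threshold in all alternatives. The results of *Ccdc40*, *Cfap53*, *Dnah8*, *Rfx3* and *Rsph1* listed for single members kept their direction in 212 alternatives. Over all members tested, most of them not called, the direction between genotypes was kept in 800 of 861 values with 1 embryo left out, and right over left in 161 of 190 in wild types and 161 of 185 in inverted mutants. The cause of the changes was not tested. At this depth 4 members had a median of 3 counts or fewer, which limits the differences that could be detected in them.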

Other observations

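Among the 89 other motile cilia genes, right over left in inverted mutants had an unadjusted p below 0.05 for 12 of 70 tested, 9 of them lower on the right, beside 15.1% of all genes. None was called by edgeR. The 42 genes of intraflagellar transport and primary cilia held 2 of this kind.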
